A study of Homo sapiens with 24 samples.

Results

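The genes described here encode the nuclear subunits of complex III (cytochrome bc1 complex), complex IV (cytochrome c oxidase) and complex V (ATP synthase) of the mitochondrial respiratory chain, with the electron carrier cytochrome c. Members were all probes whose annotated gene symbol starts with UQCR, COX4, COX5, COX6, COX7, COX8 or ATP5, or is CYC1 or CYCS, without pseudogene symbols. The rule used no measured value and found 65 of the 47323 probes of the array, for 45 of 20046 annotated genes. RNA came from HEK293, an established human embryonic kidney cell line, grown in phenol-free DMEM with serum. Control cells received water for 4 h or 72 h, and treated cells received MOTS-c, a peptide encoded in the mitochondrial 12S ribosomal RNA, at 10 µM for 4 h or 72 h. Each of the 4 groups was measured on 6 Illumina bead arrays. Whether the 6 arrays of a group stand for separate cultures is not stated in the labels. The p-values rest on the spread among the arrays, part or all of which may be technical.

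Complex III takes electrons from ubiquinol and passes them to cytochrome c, and complex IV passes them from cytochrome c to oxygen. Both pump protons out of the mitochondrial matrix as they do so, and ATP synthase lets the protons return through its membrane part, Fo, to drive ATP synthesis in its catalytic head, F1. The subunits at the reaction centres of complexes III and IV and in the proton channel of Fo are partly encoded in mitochondrial DNA. Those transcripts fall outside the rule and are not analysed here. The Rieske iron-sulphur subunit of complex III, a nuclear subunit that the rule would take, is not analysed here.

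The promoters of the 4 genes with the smallest p-values between treated and control cells at 72 h are shown, because these genes carry most of what follows and moved in opposite directions. UQCR10 on 2 of its 3 probes and ATP5IF1 on 1 of its 2 probes had lower values in treated cells, and UQCR11 and ATP5F1C, with 1 tested probe each, had higher values. Each run is the 250 bases directly before the start of transcription in RefSeq (GRCh38.p14), 5′ to 3′ on the strand of the gene. Capitals mark matches to the core letters of the NRF1 site, GCGCANGCG, or of the ETS and GABP site, CCGGAAG, on either strand. NRF1 and GABP are transcription factors known for their sites in promoters of respiratory chain genes.
UQCR10, chr22:29767119-29767368, plus strand: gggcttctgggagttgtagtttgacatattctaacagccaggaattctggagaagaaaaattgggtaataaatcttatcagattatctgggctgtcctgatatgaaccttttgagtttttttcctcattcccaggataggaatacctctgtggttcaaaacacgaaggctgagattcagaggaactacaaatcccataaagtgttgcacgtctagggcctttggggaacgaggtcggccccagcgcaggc
ATP5IF1, chr1:28235874-28236123, plus strand: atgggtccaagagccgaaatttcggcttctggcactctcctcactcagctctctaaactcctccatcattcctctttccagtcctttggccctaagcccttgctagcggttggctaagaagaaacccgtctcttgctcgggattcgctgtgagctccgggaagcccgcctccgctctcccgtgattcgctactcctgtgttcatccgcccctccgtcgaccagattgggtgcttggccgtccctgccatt
UQCR11, chr19:1605463-1605712, minus strand: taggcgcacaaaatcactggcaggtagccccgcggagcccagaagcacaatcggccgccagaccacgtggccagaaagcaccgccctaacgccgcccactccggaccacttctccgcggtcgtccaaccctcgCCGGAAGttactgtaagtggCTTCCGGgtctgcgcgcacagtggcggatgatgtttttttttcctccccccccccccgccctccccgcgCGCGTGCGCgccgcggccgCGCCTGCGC
ATP5F1C, chr10:7787927-7788176, plus strand: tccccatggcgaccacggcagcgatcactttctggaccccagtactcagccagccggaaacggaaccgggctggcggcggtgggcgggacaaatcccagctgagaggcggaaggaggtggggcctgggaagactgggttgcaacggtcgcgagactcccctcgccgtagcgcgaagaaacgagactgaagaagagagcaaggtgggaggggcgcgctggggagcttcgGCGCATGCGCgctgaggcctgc

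The UQCR11 window held 2 matches to each of these motifs, and the ATP5F1C window held 2 overlapping matches to the NRF1 letters. The UQCR10 and ATP5IF1 windows held neither in these 250 bases. In UQCR10 a match to the NRF1 letters spans the start, from -8 to 0 counted from it, so it lies partly outside the printed run, and a YY1 match lies after the start, from 27 to 34. RefSeq promoters were matched by symbol for 35 of the 45 genes, as 41 starts, since some genes have several. In windows of 300 bases, 250 before and 50 after the start, the NRF1 letters were present in 26.8% of these 41 promoters and in 7.52% of all 35116 promoters. The ETS and GABP letters were present in 36.6% against 10.3%, and the YY1 letters, AANATGGC, in 29.3% against 6.58%. The estrogen-related receptor letters, TCAAGGTCA, were in 0% against 0.353%, the CRE letters, TGACGTCA, in 4.88% against 1.85%, and the GC box, GGGCGG, in 56.1% against 45%. Both strands were searched, and 0 matches of different motifs overlapped in the 41 promoters. COX7B, COX7A2L and ATP5PB, called higher at 72 h as defined below, had 0 NRF1 and 0 ETS and GABP matches in these windows. UQCRC1, UQCRH, ATP5PF and ATP5MG, also called higher, had matches to at least 1 of these motifs. ATP5MC2, called lower, had 1 NRF1 match among its starts, and ATP5MC1, called lower, had 0 of either. Whether matches go with the direction of change was not tested. A match describes letters in a window and is not evidence of a bound site.

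Levels are given as normalized log2 intensities. Of the 65 probes, 57 in 39 genes passed the detection filter (6 or more of the 24 arrays with a detection p below 0.05), and 54 of these were detected on all 24. The 6 genes with no tested probe were COX4I2, COX6A2, COX6B2, COX7A1, COX7B2 and COX8C, all detected on 0 arrays. They encode complex IV isoforms known from lung, striated muscle or testis. Among the isoform pairs, the ubiquitous COX4I1 was detected on all 24 arrays, at 13.37 to 13.65, and COX4I2 on 0. The same held for COX6A1 against COX6A2, COX6B1 against COX6B2, COX7A2 and COX7A2L against COX7A1, COX7B against COX7B2, and COX8A against COX8C: the first-named were detected on every array and the last-named on 0. One of the 3 ATP5ME probes was detected on 0 arrays, and the partly detected tested probes were ATP5MK on 10 arrays, ATP5MC2 probe ILMN_1807798 on 19 and UQCRB probe ILMN_2128489 on 23. All 3 genes for the proteolipid of the Fo c-ring, ATP5MC1, ATP5MC2 and ATP5MC3, were detected in all groups.

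The comparison at 72 h asks what these genes do after prolonged exposure to the peptide. Within complex III and within ATP synthase some probes were higher and others lower in treated cells, and the 3 called probes of complex IV were higher. A probe counts as called where its limma p, adjusted by Benjamini-Hochberg over all 23931 tested probes, was below 0.05. Of the 57 member probes, 21 were called (36.8%), 15 higher and 6 lower. Of all tested probes 37.7% were called, 19.3% higher and 18.3% lower, so the share of members called was near the background. The median log2 fold change was 0.086 over the members and 0.017 over all tested probes. With median scaling these were 0.10 and -5e-04, and with the deposited Z scores, in Z units, 0.012 and 0.0096. The called probes belong to 18 genes, 13 higher and 5 lower, and 8 of these genes were called by every tested probe they have. All of these 8 except ATP5MF have a single tested probe.

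**Figure D1:**
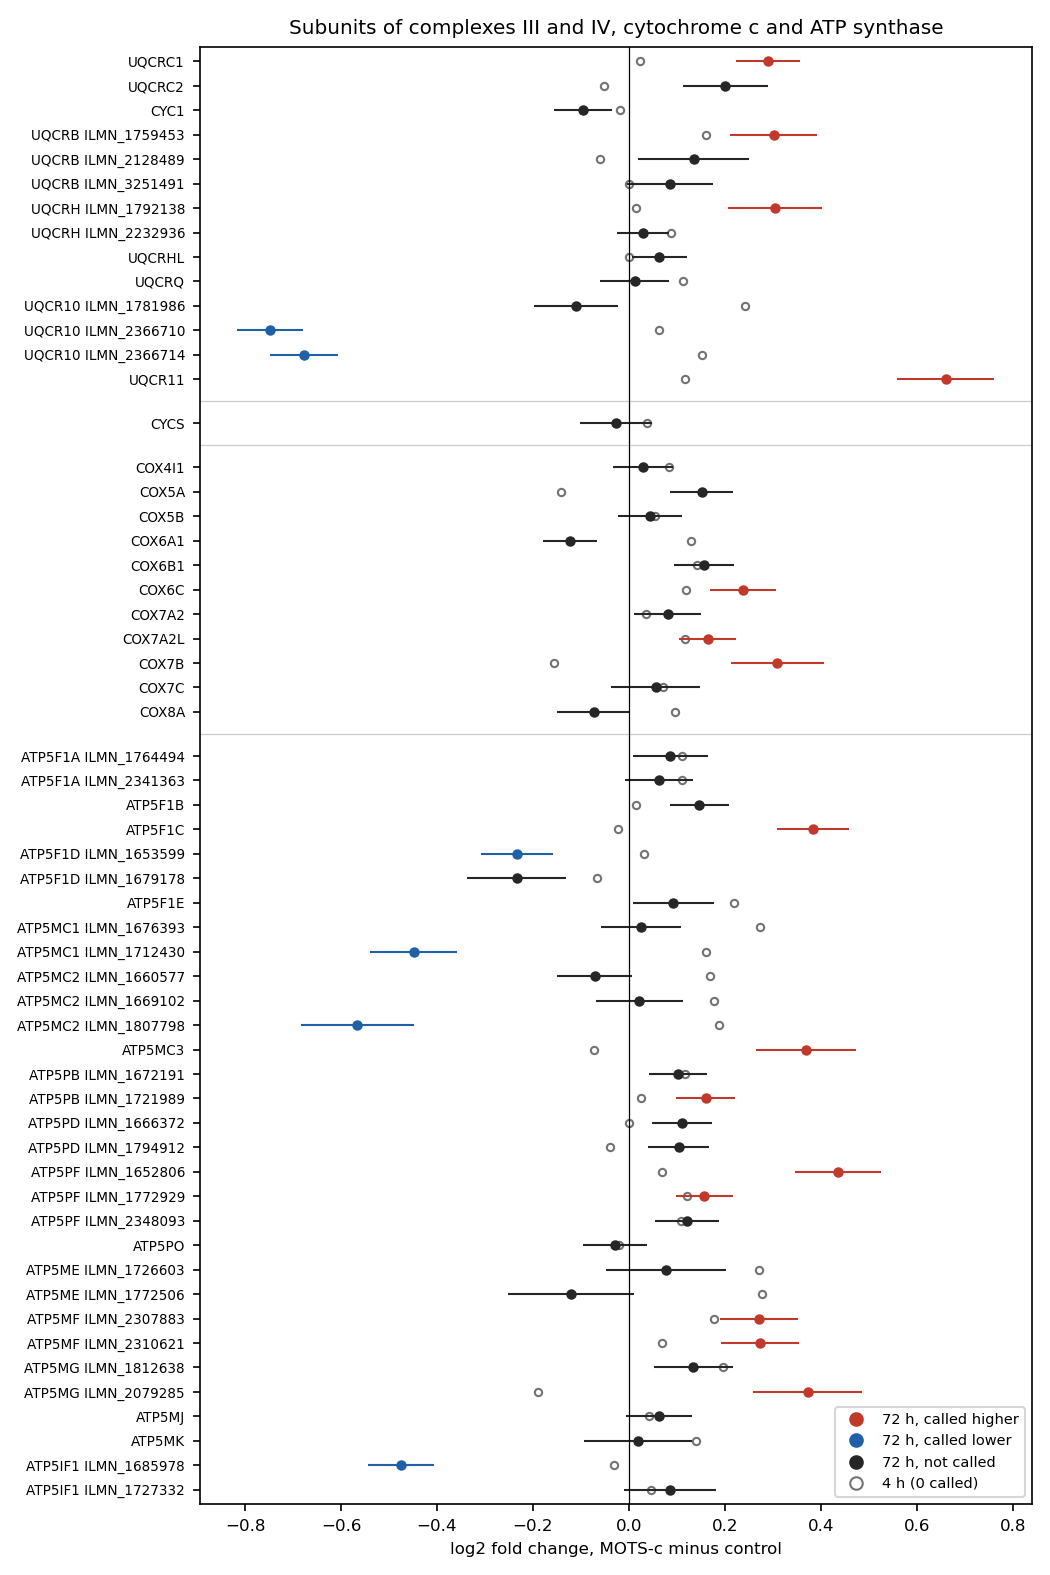
Log2 fold change between MOTS-c and control cells for the 57 tested probes, one per line, ordered by complex III, cytochrome c, complex IV and ATP synthase. Filled points with bars are the 72 h estimate with its SE (n = 6 arrays per group) and open circles the 4 h estimate. At 72 h the values ran from -0.75 for a UQCR10 probe to 0.66 for UQCR11, and at 4 h from -0.19 to 0.28 with 0 called.

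In complex III, 4 of 14 probes were called higher and 2 lower (42.9% called, against 37.7% of all tested probes). UQCR10, a small accessory subunit, is measured by 3 probes. On probe ILMN_2366710 the 72 h control arrays had a lowest, median and highest value of 9.17, 9.34 and 9.57, and the treated arrays 8.46, 8.60 and 8.68. Every treated array lay below every control array, and the log2 fold change was -0.75 (SE 0.068, n = 6, limma adjusted p = 2.38e-09), a 1.68-fold lower level. Probe ILMN_2366714 ran through 9.05, 9.10 and 9.23 in controls and 8.25, 8.43 and 8.67 in treated cells, again without overlap. Its log2 fold change was -0.68 (SE 0.072, limma adjusted p = 3.00e-08). The third probe, ILMN_1781986, did not follow them. It had values of 9.64, 9.95 and 10.11 in controls and 9.77, 9.80 and 9.97 in treated cells, overlapping, with a log2 fold change of -0.11 (SE 0.088, limma adjusted p = 0.349).

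UQCR11, another small accessory subunit, moved the other way. Its 72 h control arrays had a lowest, median and highest value of 6.90, 7.11 and 7.39, and its treated arrays 7.59, 7.76 and 8.11. The groups did not overlap, and the log2 fold change was 0.66 (SE 0.10, n = 6, limma adjusted p = 8.49e-06), 1.58-fold. UQCRC1, a core subunit on the matrix side, had values of 10.39, 10.51 and 10.73 in controls and 10.69, 10.82 and 10.95 in treated cells. The highest control lay just above the lowest treated array, and the log2 fold change was 0.29 (SE 0.067, limma adjusted p = 0.00107). The other core subunit, UQCRC2, was at 0.20 (SE 0.088, limma adjusted p = 0.0740) and was not called. CYC1, the haem-bearing cytochrome c1, was at -0.10 (SE 0.060) and was not called.

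UQCRB, known as the ubiquinone-binding protein of the complex, rose on 1 of 3 probes, ILMN_1759453, by 0.30 (SE 0.090, limma adjusted p = 0.00920). Its other probes were at 0.13 and 0.09. The hinge protein UQCRH, which docks cytochrome c, rose on probe ILMN_1792138 by 0.30 (SE 0.098, limma adjusted p = 0.0153), and its other probe was at 0.03. The probe of UQCRHL was at 0.06. UQCRHL is a near-identical retrotransposed copy of UQCRH, so these probes may read both transcripts. UQCRQ was at 0.01 (SE 0.072), and CYCS, cytochrome c itself, at -0.03 (SE 0.075). Neither was called.

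In complex IV, 3 of 11 probes were called (27.3%, against 37.7% of all tested probes), all higher. COX7B was at 11.41, 11.48 and 11.70 (lowest, median and highest) on the 72 h control arrays and at 11.66, 11.82 and 11.95 on the treated arrays. Its log2 fold change was 0.31 (SE 0.097, limma adjusted p = 0.0126), with a small overlap between groups. COX6C rose by 0.24 (SE 0.069, limma adjusted p = 0.00724), with no overlap between groups. COX7A2L, a member of the COX7A family that joins complexes III and IV in supercomplexes, rose by 0.16 (SE 0.059, limma adjusted p = 0.0302). The largest nuclear subunit, COX4I1, was at 0.03 (SE 0.063). COX5A was at 0.15, COX6B1 at 0.16, COX7A2 at 0.08, COX7C at 0.06 and COX5B at 0.04, none of them called. Negative values that were not called were seen for COX6A1 at -0.12 and COX8A at -0.07.

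In ATP synthase, 8 of 31 probes were called higher and 4 lower (38.7% called, against 37.7% of all tested probes). Subunits of the F1 head and the Fo c-ring were called in both directions. ATP5F1C, the gamma subunit that turns inside the head, had 72 h control values of 11.61, 11.68 and 11.86 and treated values of 12.01, 12.07 and 12.22. The groups did not overlap, and it rose by 0.38 (SE 0.075, n = 6, limma adjusted p = 0.000183), 1.31-fold. ATP5F1D, the delta subunit of the central stalk, fell by 0.23 on probe ILMN_1653599 (SE 0.076, limma adjusted p = 0.0160). Its other probe, ILMN_1679178, gave a log2 fold change of -0.23 (SE 0.10, limma adjusted p = 0.0756) and was not called. Without replicate 5 of the 72 h controls that probe was at -0.32 (limma adjusted p = 0.00638). Dixon's rule, given below, did not set that array apart on this probe. The call of ILMN_1653599 ended under median scaling (-0.17, limma adjusted p = 0.140). It also ended without replicate 1 of the 72 h controls (-0.19, limma adjusted p = 0.0507). The catalytic beta subunit ATP5F1B was at 0.15 (SE 0.062, limma adjusted p = 0.0633). The alpha subunit ATP5F1A was at 0.09 and 0.06 on its 2 probes, and the epsilon subunit ATP5F1E at 0.09.

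The 3 genes of the c-ring encode the same mature proteolipid. ATP5MC3 had 72 h control values of 7.14, 7.22 and 7.69 and treated values of 7.45, 7.66 and 7.87, an overlap set by the highest control array. It rose by 0.37 (SE 0.10, limma adjusted p = 0.00599). ATP5MC1 fell on probe ILMN_1712430, from 8.62, 8.77 and 8.92 in controls to 8.08, 8.32 and 8.51 in treated cells, without overlap. The log2 fold change was -0.45 (SE 0.091, limma adjusted p = 0.000283), and its other probe, ILMN_1676393, was at 0.03 (SE 0.084). ATP5MC2 fell on probe ILMN_1807798, whose values of 6.17, 6.33 and 6.66 in controls and 5.50, 5.89 and 6.02 in treated cells are dim. The log2 fold change was -0.57 (SE 0.12, limma adjusted p = 0.000361). Its brighter probe ILMN_1660577 was at -0.07 (SE 0.078) and its probe ILMN_1669102 at 0.02 (SE 0.091).

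The peripheral stalk, which holds the head still, had 3 of 8 probes called (37.5%, against 37.7% of all tested probes), all higher. ATP5PF, the coupling factor 6 of this stalk, had values of 9.84, 10.16 and 10.28 in controls and 10.37, 10.62 and 10.65 in treated cells on probe ILMN_1652806. The groups did not overlap, and the log2 fold change was 0.44 (SE 0.090, limma adjusted p = 0.000353). Its probe ILMN_1772929 rose by 0.16 (SE 0.060, limma adjusted p = 0.0384), and ILMN_2348093 was at 0.12 (SE 0.067). ATP5PB, the b subunit, rose by 0.16 on probe ILMN_1721989 (SE 0.061, limma adjusted p = 0.0405), and its other probe was at 0.10. The d subunit ATP5PD was at 0.11 and 0.10, and ATP5PO, the oligomycin sensitivity protein, at -0.03, none called. The calls of ATP5PB and of ATP5PF probe ILMN_1772929 ended without 9 and 7, respectively, of the 24 arrays left out singly, and that of COX7A2L without 5.

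Among the small Fo membrane subunits, which shape the dimer of the enzyme, 3 of 8 probes were called, all higher. That is 37.5%, against 37.7% of all tested probes. Both ATP5MF probes rose by 0.27 (SE 0.081 for each, limma adjusted p = 0.00886 for ILMN_2307883 and 0.00880 for ILMN_2310621), without overlap between groups. ATP5MG rose by 0.37 on probe ILMN_2079285 (SE 0.11, limma adjusted p = 0.0108), and its brighter probe ILMN_1812638 was at 0.13 (SE 0.082). The ATP5ME probes were at 0.08 and -0.12, ATP5MJ at 0.06 and ATP5MK at 0.02, none called. ATP5IF1, the inhibitor that stops the enzyme from hydrolysing ATP when the proton gradient collapses, fell on probe ILMN_1685978. Its lowest, median and highest values were 8.39, 8.50 and 8.58 in controls and 7.87, 7.99 and 8.24 in treated cells, without overlap. The log2 fold change was -0.48 (SE 0.068, n = 6, limma adjusted p = 3.55e-06), 1.39-fold lower. Its brighter probe ILMN_1727332 had values of 10.77, 11.14 and 11.23 in controls and 10.99, 11.18 and 11.41 in treated cells, a difference of 0.09 (SE 0.095) that was not called.

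**Figure D2:**
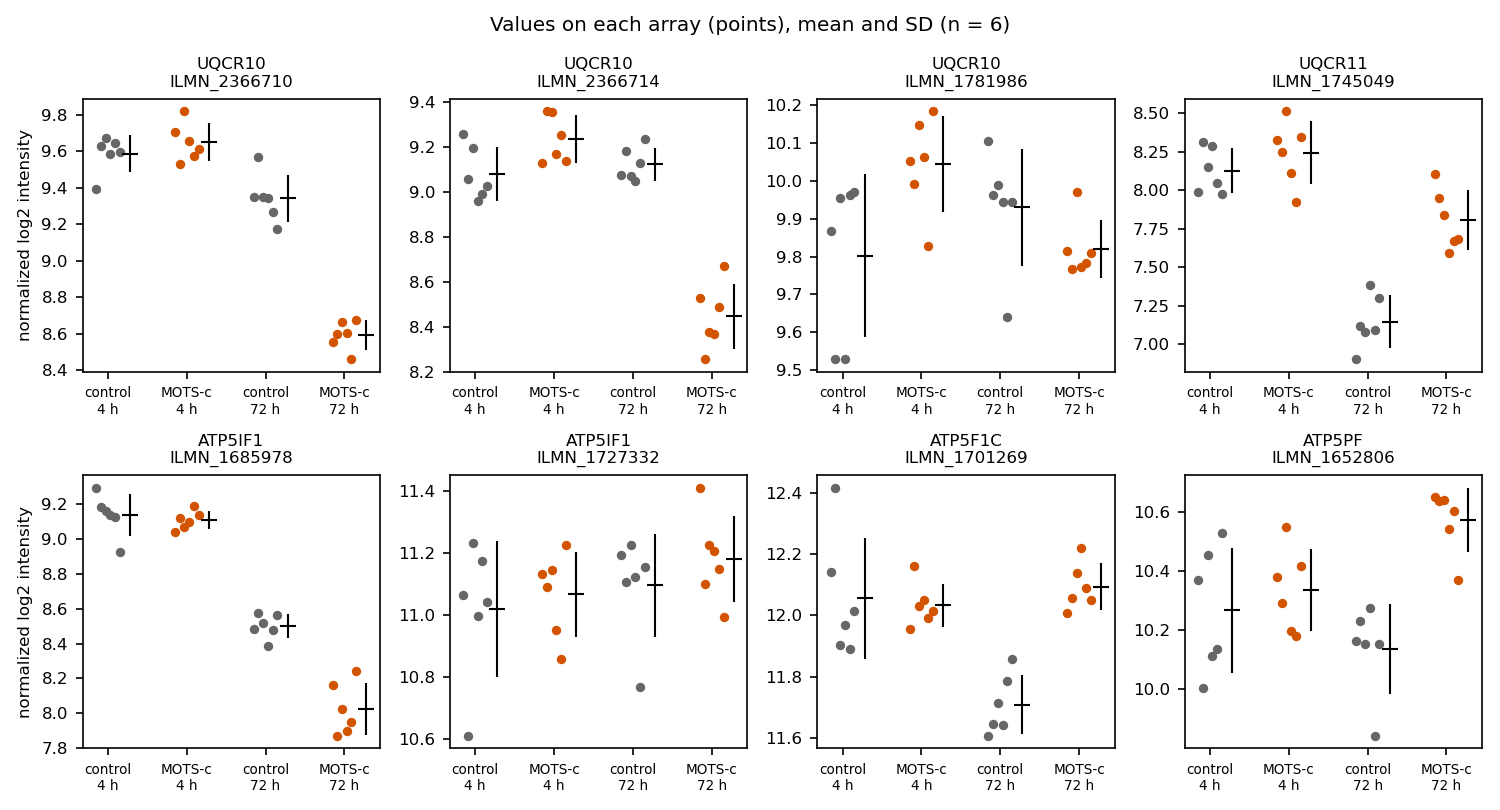
Normalized log2 intensity on each of the 24 arrays (points) for 8 probes, with the mean and SD of each group (n = 6). The axes differ between panels and do not start at 0, and levels of different probes are not comparable. UQCR10 falls to between 8.46 and 8.68 on probe ILMN_2366710 in 72 h treated cells, while ILMN_1781986 overlaps between groups.

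Probes of the same gene did not always agree, and a test of this was added after the values were seen. For each of the 22 pairs of probes in the 14 genes with 2 or 3 tested probes, the difference between probes was compared between the 6 treated and 6 control arrays at 72 h. A two-sided exact permutation test over 924 splits was used, whose smallest possible p is 0.00216. After Benjamini-Hochberg adjustment over the 22 pairs, 9 pairs in 6 genes passed 0.05 in this exact permutation test. They were the pairs of ILMN_1781986 with either other UQCR10 probe, the ATP5MC1 pair, the ATP5IF1 pair, both pairs of ATP5MC2 probe ILMN_1807798 (exact permutation adjusted p = 0.00679 for each), both pairs of ATP5PF probe ILMN_1652806 (0.00679 and 0.0119) and the ATP5ME pair (0.0212). In UQCR10, ATP5MC1, ATP5MC2 and ATP5PF the differing probes are annotated to different RefSeq transcripts. The ATP5IF1 and ATP5ME pairs are annotated to the same transcript. The pairs of ATP5MF, ATP5F1A and ATP5PD differed by at most 0.024. The ATP5MF pair, the ATP5PD pair and the remaining ATP5PF pair, ILMN_1772929 with ILMN_2348093, are also annotated to different transcripts and did not pass (exact permutation adjusted p = 0.996, 0.986 and 0.577). Only UQCR10, ATP5MF and ATP5PF had 2 called probes at 72 h, and within each of these genes the called probes moved the same way. What each probe binds was not tested.

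**Figure D3:**
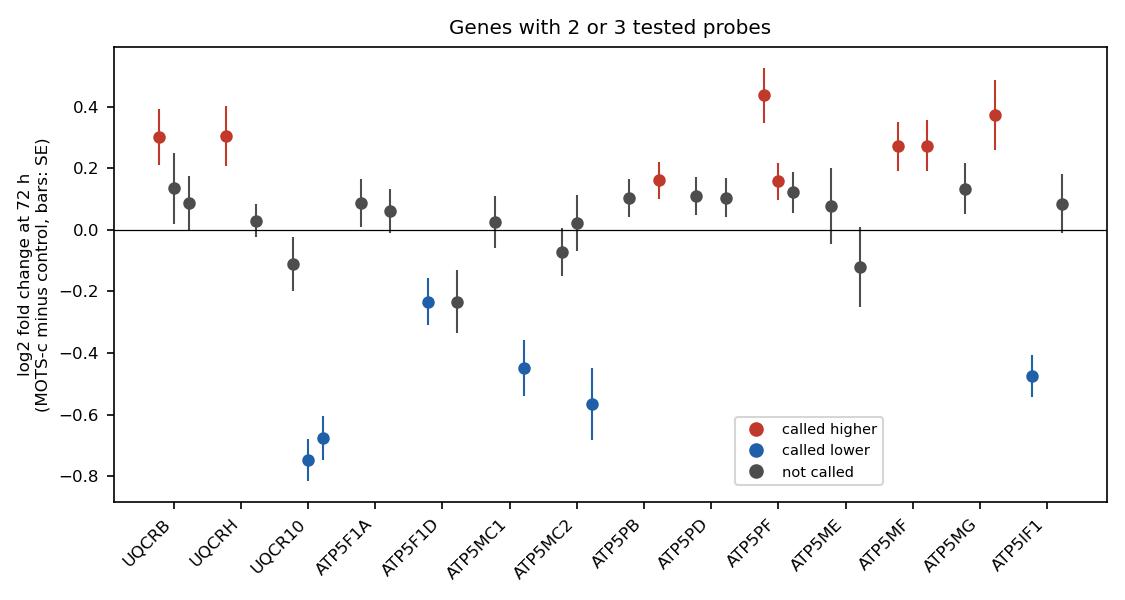
Log2 fold change at 72 h with its SE for each tested probe of the 14 genes with 2 or 3 tested probes (n = 6 arrays per group). The UQCR10 probes lie at -0.11, -0.75 and -0.68, and the 2 ATP5MF probes coincide at 0.27.

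The widest changes were on dimmer probes, which is a description with no test. A split at a mean log2 intensity of 12, also chosen after the values were seen, put 26 member probes above it. Of these, 5 were called at 72 h (19.2%), all higher, with values from -0.12 to 0.27. Of the 31 dimmer member probes 16 were called (51.6%), 10 higher and 6 lower, with values from -0.75 to 0.66. Over all tested probes the shares called were 26.9% of the 1124 bright and 38.2% of the 22807 dimmer probes. UQCR10, ATP5MC1, ATP5MC2 and ATP5IF1, called lower, each have a further probe with a higher mean intensity, which was not called. The brightest probes of UQCRH, ATP5MG and ATP5PF, genes called higher, were not called either. In UQCRB, ATP5PB, ATP5MF and ATP5F1D the brightest probe was called. With the probe of highest mean intensity standing for each of the 39 genes, 12 genes were higher and 1, ATP5F1D, was lower. That is 13 of 39 called, against 45.1% of all 13283 genes' probes so chosen, in either direction. The shares by direction were not computed for these 13283 probes, so the split of 12 and 1 has no background beside it.

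At 4 h, the comparison asks whether these genes respond soon after the peptide is added, and 0 of 57 member probes were called by limma. Of all tested probes 0.0334% were called. At an unadjusted p under 0.05 there were 12 of the 57 member probes and 2886 of all 23931. Values were above 0 for 43 of the 57 and for 12268 of the 23931. The median was 0.072, against 0.0036 over all tested probes, and 0.030 with median scaling in place of quantile normalization. The smallest p belonged to ATP5MC1 probe ILMN_1676393, whose control arrays had a lowest, median and highest value of 10.78, 11.04 and 11.28 and whose treated arrays had 11.04, 11.32 and 11.50. The groups overlapped, and the log2 fold change was 0.27 (SE 0.084, n = 6, limma adjusted p = 0.227). UQCR10 probe ILMN_1781986 ran through 9.53, 9.91 and 9.97 in controls and 9.83, 10.06 and 10.18 in treated cells, at 0.24 (SE 0.088, limma adjusted p = 0.279). ATP5F1E ran through 10.60, 10.97 and 11.22 and then 11.01, 11.19 and 11.36, at 0.22 (SE 0.084, limma adjusted p = 0.306). ATP5MG probe ILMN_1812638 ran through 12.06, 12.41 and 12.67 and then 12.46, 12.64 and 12.77, at 0.20 (SE 0.082, limma adjusted p = 0.339). In all 4 the groups overlapped. The 2 tested ATP5ME probes had larger values of 0.27 and 0.28, which rest on 1 low control array. Without replicate 2 of the 4 h controls ILMN_1726603 was at 0.10 (SE 0.071) and ILMN_1772506 at 0.11 (SE 0.086).

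The interaction asks whether the difference between treated and control cells changed between the 2 times. It was called for 15 of 57 member probes (26.3%), 8 higher and 7 lower, against 27.9% of all tested probes, 14.1% higher and 13.9% lower. The lower calls were led by UQCR10. Probe ILMN_2366714 had a 4 h difference of 0.15 and a 72 h difference of -0.68, an interaction of -0.83 (SE 0.10, limma adjusted p = 1.03e-06), and ILMN_2366710 gave -0.81 (SE 0.096, limma adjusted p = 6.86e-07). The third UQCR10 probe was called at -0.35 (SE 0.12, limma adjusted p = 0.0334). ATP5MC2 probe ILMN_1807798 was at -0.75, ATP5MC1 probe ILMN_1712430 at -0.61, ATP5IF1 probe ILMN_1685978 at -0.45 and COX6A1 at -0.25. The higher calls were ATP5MG probe ILMN_2079285 at 0.56, UQCR11 at 0.54, COX7B at 0.47, ATP5MC3 at 0.44, ATP5F1C at 0.41, ATP5PF probe ILMN_1652806 at 0.37, COX5A at 0.29 and UQCRC1 at 0.27. With the deposited Z scores the calls of COX6A1, COX5A and ATP5MC3 ended, and with median scaling those of COX6A1 (-0.15, limma adjusted p = 0.274) and UQCR10 probe ILMN_1781986 (-0.25, limma adjusted p = 0.133). The members' median was -0.0078, and 0.10 under median scaling, which turns its sign.

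The 2 comparisons over time ask how these genes changed in culture between 4 h and 72 h. They use the same arrays as the comparisons above, so their values are set side by side and are not independent. Every 72 h array detected more probes than every 4 h array, and the part of this in the changes over time was not tested. In control cells 25 of 57 member probes were called (43.9%), 9 higher and 16 lower, against 57.6% of all tested probes, 28.4% higher and 29.1% lower. In MOTS-c cells 15 were called (26.3%), 5 higher and 10 lower, against 33.7% of all tested probes, 17.4% higher and 16.4% lower. The members' median was -0.034 in control cells and -0.026 in MOTS-c cells. With median scaling it was -0.0075 and 0.073, and with the deposited Z scores, in Z units, 0.032 and 0.011, so its sign depends on the scaling.

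UQCR11 fell by 0.98 in control cells (SE 0.10, limma adjusted p = 5.07e-09), from 7.98, 8.10 and 8.32 (lowest, median and highest) at 4 h to 6.90, 7.11 and 7.39 at 72 h. In MOTS-c cells it fell by 0.44 (SE 0.10, limma adjusted p = 0.00144), from 7.92, 8.29 and 8.51 to 7.59, 7.76 and 8.11. At 72 h the treated arrays were nearer the 4 h values than the control arrays were. ATP5MC3 fell by 0.94 in control cells, from 8.10, 8.24 and 8.47 at 4 h, and by 0.50 in MOTS-c cells, from 7.82, 8.18 and 8.47. COX7B fell by 0.48 in control cells and was at -0.01 in MOTS-c cells. ATP5MG probe ILMN_2079285 fell by 0.76 in control cells, from 9.67, 9.99 and 10.18 to 8.96, 9.17 and 9.48, and was at -0.20 in MOTS-c cells, which was not called. ATP5F1C fell by 0.35 in control cells and was at 0.06 in MOTS-c cells, and COX5A fell by 0.32 and was at -0.02. Both ATP5MF probes fell in control cells, by 0.25 and 0.35, as did UQCRH probe ILMN_1792138 by 0.26 and COX6C by 0.19. None of these was called in MOTS-c cells. At 4 h the ATP5F1C values were 11.89, 11.99 and 12.42 in control cells and 11.96, 12.02 and 12.16 in MOTS-c cells, so the 72 h control arrays, at most 11.86, lay below both 4 h groups.

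Higher values at 72 h in control cells were seen for ATP5MC2 probe ILMN_1807798, at 1.08 (SE 0.12, limma adjusted p = 1.32e-08). It was detected on 2 of 6 control arrays at 4 h and on 6 of 6 at 72 h, and had values of 5.13, 5.26 and 5.55 and then 6.17, 6.33 and 6.66. In MOTS-c cells, where 5 arrays at 4 h and 6 at 72 h detected it, it rose by 0.32 (limma adjusted p = 0.0336). This second call ended under median scaling (0.23, limma adjusted p = 0.1999), with Z scores, with no detection filter, with brightness as a covariate, and without any 1 of 7 single arrays. ATP5MC1 probe ILMN_1712430 rose by 0.59 in control cells, from 7.97, 8.13 and 8.48 to 8.62, 8.77 and 8.92, and was at -0.02 in MOTS-c cells, whose 4 h values were 8.13, 8.30 and 8.66. COX6A1 rose by 0.33 in control cells and was at 0.08 in MOTS-c cells. Both ATP5F1D probes rose in control cells, by 0.32 and 0.31, and neither was called in MOTS-c cells. The bright ATP5MC2 probe ILMN_1660577 rose by 0.28 and ATP5ME probe ILMN_1772506 by 0.36 in control cells. Without replicate 2 of the 4 h controls that ATP5ME value was 0.19 (limma adjusted p = 0.0586). ATP5MK was detected on 0 of 6 control arrays at 4 h and on 4 of 6 at 72 h, so its call (limma adjusted p = 0.0468) has only a bound. It was at least 1.02-fold higher with the lowest detected signal of each array standing in for a dimmer 4 h value. The 72 h values were taken as measured, undetected arrays included, and its call ended without any 1 of 14 single arrays.

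For ATP5IF1 probe ILMN_1685978 and the 3 UQCR10 probes the change over time was lower in MOTS-c cells than in control cells, a difference that is the interaction given above. ATP5IF1 probe ILMN_1685978 fell by 1.08 in MOTS-c cells (SE 0.068, limma adjusted p = 4.74e-12), from 9.04, 9.11 and 9.19 to 7.87, 7.99 and 8.24, a 2.12-fold lower level. In control cells it fell by 0.64 (SE 0.068, limma adjusted p = 1.02e-08), from 8.92, 9.15 and 9.29. The 4 h groups overlapped, and the 72 h groups did not. The brighter ATP5IF1 probe ILMN_1727332 was at 0.08 in control cells and 0.11 in MOTS-c cells, not called. UQCR10 probe ILMN_2366710 fell by 1.06 in MOTS-c cells (SE 0.068, limma adjusted p = 7.04e-12), from 9.53, 9.63 and 9.82 to 8.46, 8.60 and 8.68, and by 0.25 in control cells. Probe ILMN_2366714 fell by 0.79 in MOTS-c cells and was at 0.04 in control cells. Probe ILMN_1781986 fell by 0.23 in MOTS-c cells (limma adjusted p = 0.0483), a call that ended without any 1 of 15 single arrays, and was at 0.13 in control cells. The core subunits UQCRC1 and UQCRC2 rose in MOTS-c cells, by 0.36 and 0.35. They were at 0.09 and 0.10 in control cells, not called. ATP5PF probe ILMN_1652806 rose by 0.24 in MOTS-c cells (limma adjusted p = 0.0435), which ended without any 1 of 9 single arrays, and was not called in control cells.

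Some members were called in the same direction in both cultures. COX5B fell by 0.34 in control cells and by 0.35 in MOTS-c cells (SE 0.067 for each, limma adjusted p = 0.000122 and 0.000255). Its values went from 13.14, 13.40 and 13.62 to 12.98, 13.01 and 13.13 in control cells, and from 13.32, 13.45 and 13.50 to 13.02, 13.10 and 13.18 in MOTS-c cells. With median scaling the fall in MOTS-c cells was 0.20 (limma adjusted p = 0.0871) and was not called. With the deposited Z scores neither fall was called (limma adjusted p = 0.0928 and 0.0823). The interaction for COX5B was not called. All 3 UQCRB probes fell in both cultures, by 0.54, 0.64 and 0.45 in control cells and by 0.45, 0.44 and 0.30 in MOTS-c cells, for ILMN_3251491, ILMN_2128489 and ILMN_1759453. On the first of them values went from 6.36, 6.41 and 6.90 to 5.88, 5.97 and 6.10 in control cells, and from 6.42, 6.53 and 6.61 to 5.84, 6.14 and 6.24 in MOTS-c cells. COX7A2L rose in both, by 0.21 and 0.25.

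**Figure D4:**
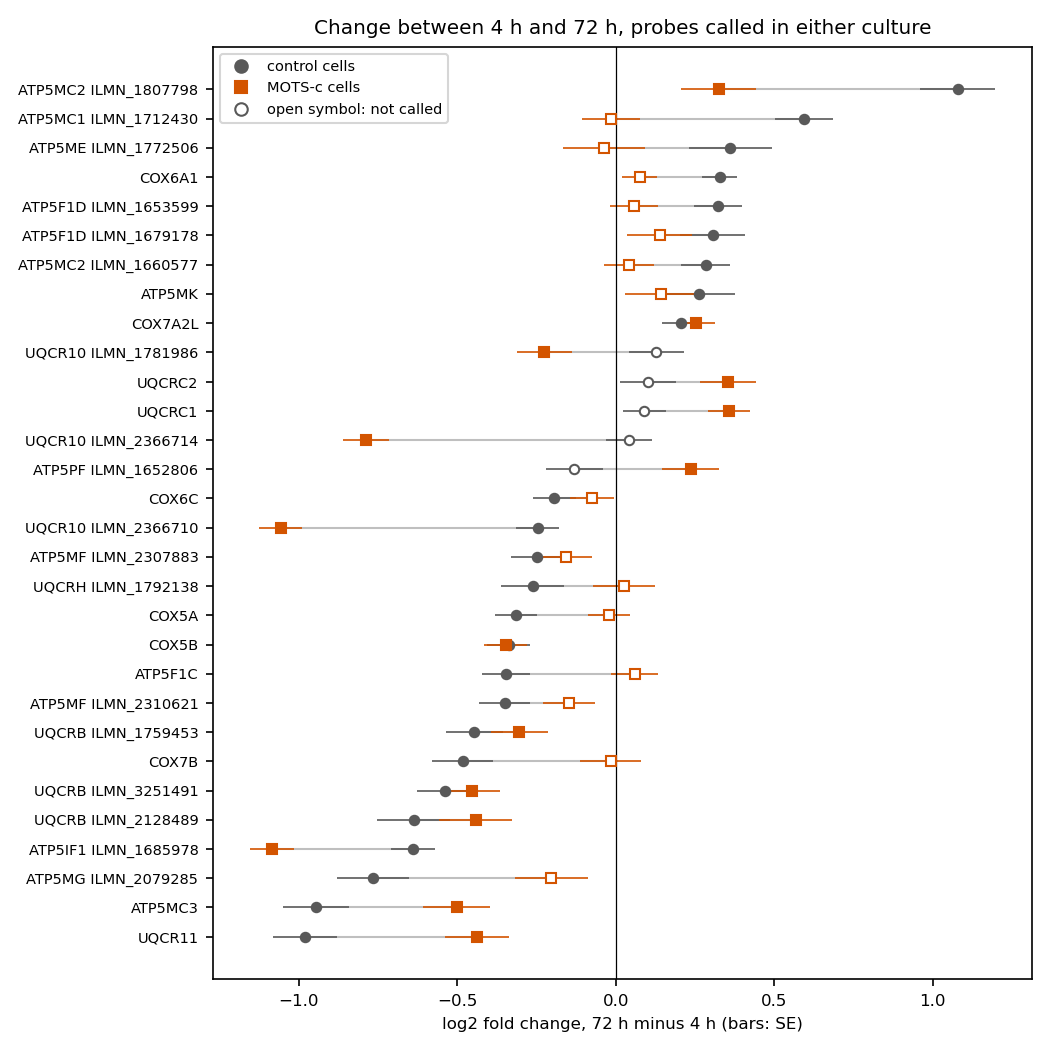
Log2 fold change from 4 h to 72 h with its SE in control cells (grey circles) and MOTS-c cells (orange squares) for the probes called in either, ordered by the change in control cells (n = 6 arrays per group). Open symbols were not called. ATP5MK was detected on 0 control arrays at 4 h. Its grey circle is the fitted limma estimate, and the smaller bound given in the text is not drawn. UQCR11, ATP5MC3 and ATP5MG probe ILMN_2079285 lie further below 0 in control cells, and ATP5IF1 probe ILMN_1685978 and the UQCR10 probes further below 0 in MOTS-c cells.

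Assembly factors of these complexes also moved both ways at 72 h. In a list of factors for the assembly and translation of complexes III and IV, 37 of 40 genes had a tested probe. Of their 44 probes 12 were higher and 11 lower, with values from -0.95 to 0.55 and a median of -0.024. Among the lower were SCO2, which delivers copper to complex IV, at -0.95 (SE 0.078, limma adjusted p = 3.85e-10), UQCC3, a complex III assembly factor, at -0.88, TMEM177 at -0.80, and BCS1L, which inserts the iron-sulphur subunit into complex III, at -0.70. LRPPRC, which stabilizes mitochondrial messenger RNA, fell by 0.26. Among the higher were the 3 probes of HIGD1A, a respiratory chain interactor, at 0.55, 0.54 and 0.43, UQCC5 at 0.45 and SURF1, a complex IV assembly factor, at 0.34. In the list of ATP synthase assembly, with 9 probes, 2 were higher and 2 lower. Both probes of TMEM70, which is needed to build the c-ring, rose, by 1.02 (SE 0.071, limma adjusted p = 1.89e-11) and 1.12 (SE 0.11), and ATPAF2 and TMEM242 fell by 0.27 and 0.28.

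Of 12 complex II probes, 4 were higher and 1 lower, among them both probes of the membrane anchor SDHC at 0.34 and 0.31. Of 17 probes for transcription regulators of respiratory genes, 3 were higher and 4 lower. Both called GABPB1 probes rose, by 0.54 and 0.30, while the coactivators PPRC1 and PPARGC1B fell by 0.50 and 0.52. Of 51 probes for complex I genes with NDUF symbols, 20 were higher and 6 lower, with a median of 0.14. Against these counts, 19.3% of all tested probes were higher and 18.3% lower.

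**Figure D5:**
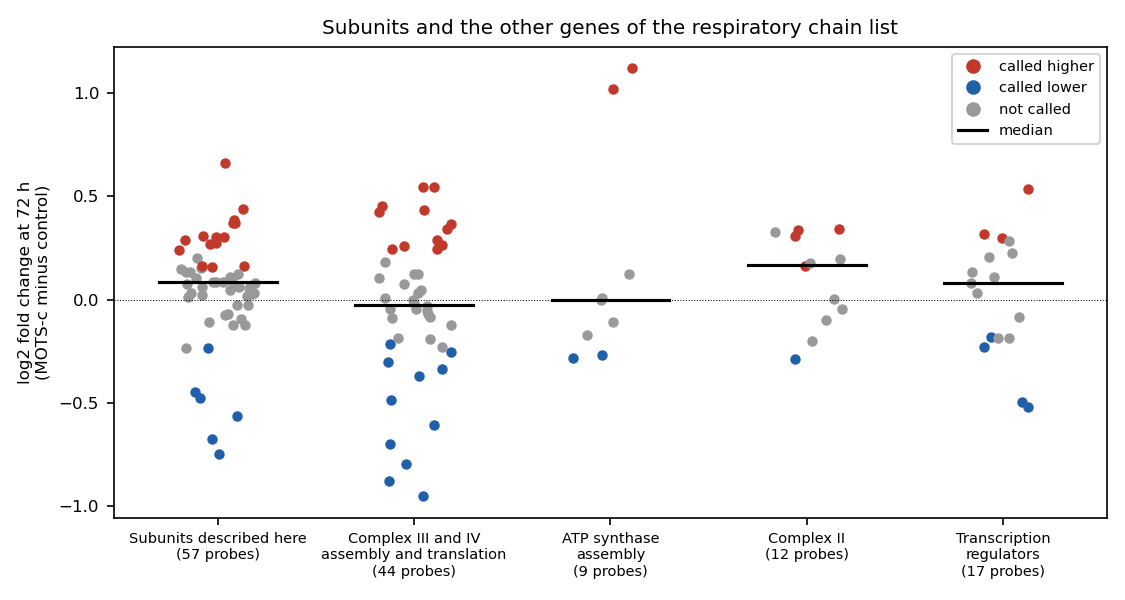
Log2 fold change at 72 h of each tested probe of the subunits and of 4 other lists, with the list median as a line (points are spread sideways at random). Subunits run from -0.75 to 0.66, and the 2 TMEM70 probes stand above 1.0 in the ATP synthase assembly list.

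The mean raw intensity per array ran from 399.2 to 629.5. At 4 h, 21059 to 21680 probes were detected per control array and 20719 to 21703 per MOTS-c array. At 72 h these ranges were 21853 to 23405 and 21741 to 22778, so every 72 h array detected more probes than every 4 h array. Arrays of a group correlated at 0.988 to 0.997, and 0 pairs of arrays were identical. Replicate 5 of the 72 h controls stood apart on 8 member probes. Without it 23 member probes were called at 72 h, 16 higher and 7 lower, and without replicate 2 of the 4 h controls 22 were, and 0 at 4 h in either case. All 10 HEK293 marker genes were detected on at least 6 arrays, though PAX2 on only 8, by 1 probe. Their summed raw intensity was 22390 to 35390 in 72 h controls and 24700 to 35690 in treated cells. Within the list the mean log2 intensity was lower in treated cells for SOX3, at 8.55 against 11.04, NEFM, at 9.002 against 10.02, and NEFH, at 7.55 against 8.29. It was higher for KRT8, at 10.41 against 10.20. Of 7 striated muscle markers 2, ACTA1 and TNNI3, were detected on at least 6 arrays, MYH7, MYH2 and MB were detected on 0, and the list's summed raw intensity was 806.6 to 1001 in 72 h controls and 684.0 to 828.5 in treated cells. Leukocyte markers summed to 685.1 to 875.2 and 588.8 to 691.1, with CD3E and LAPTM5 detected on 0 arrays. CD14 was detected on all 24 arrays by 1 probe, at 7.87 in 72 h controls and 7.11 in treated cells, and LYZ on 20 by 1 probe. Endothelial markers summed to 214.3 to 268.7 and 186.9 to 216.7, with CDH5 and PECAM1 detected on 0, KDR on 3 and VWF on 6, the last at 5.69 in 72 h controls and 5.05 in treated cells. Fibroblast markers summed to 791.2 to 1247 in 72 h controls and 733.4 to 965.5 in treated cells. Of the 5 genes 4 were detected on at least 6 arrays, COL1A1 and LUM on all 24. Hepatocyte markers summed to 427.8 to 547.2 and 421.9 to 481.2, with ALB detected on 24 arrays and SERPINA1 on 20, by 1 probe each. Testis markers summed to 237.5 to 276.5 and 240.2 to 280.1, with TNP1 detected on 15 arrays and the other genes on 0. The part of these shifts in the results was not tested. In bulk RNA, fewer cells of a kind and less RNA per cell cannot be told apart, and arrays of these cells do not measure the proteins or the activity of the complexes.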

How the data were processed

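Gene expression was measured on 24 bead arrays. Per the labels' protocols, RNA was amplified from an oligo-dT primer and labelled with biotin. GenomeStudio 2011.1 is named in the submitters' processing notes. The authors deposited bead intensities of 47323 probes, not normalized between arrays, and a detection p-value beside each intensity. They also deposited a score, the Z score of log10 intensity within each array, used here as an alternative.

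In R 4.3.3 with limma 3.58.1, neqc corrected the background from the detection p-values, added an offset of 16, quantile normalized and took log2. Probes with detection p under 0.05 on at least 6 arrays were kept (23931). A mean per group was fitted with lmFit and moderated with eBayes over all kept probes, and p-values were adjusted by Benjamini-Hochberg over them. Probes of a gene were kept apart. Probes were named from the platform annotation, in which 30113 probes have 1 gene, 8 several and 17202 none. The model was tested on simulated data.

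Array values are printed for the probes with the smallest p in each comparison: 10 at 72 h, and 4 to 6 in the others. All called members are named. COX7B was given array values after its values were seen. Members and lists were chosen with earlier results of these data known. Same-numbered arrays did not deviate together, so no pairing was used. Alternatives covered background, normalization, filters, probes, weights, the variance prior, arrays in the fit, brightness, a replicate block and single arrays left out. The number of arrays limits the precision. Figures used Python 3.11.15 and matplotlib 3.10.9.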

Additional observations from a re-analysis of the deposited data

Results flagged for a closer look

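In 22 of 228 sets of 6 arrays, each a member probe within a group, 1 array lay further from the others than Dixon's 95% critical value allows. Chance flags about 1 set in 20, and the sets share arrays. Replicate 5 of the 72 h controls accounted for 8 of the 22. It was low for ATP5IF1 probe ILMN_1727332 at 10.77, ATP5PF probe ILMN_1652806 at 9.84, COX4I1 at 13.37, COX8A at 13.07 and UQCR10 probe ILMN_1781986 at 9.64. It was high for ATP5F1A probe ILMN_2341363 at 13.97, COX7A2 at 13.90 and COX7C at 13.98. Its mean raw intensity, 596.9, and its 23405 detected probes were the highest of its group. Without it, the interaction of ATP5PF probe ILMN_1652806 was 0.31 (limma adjusted p = 0.0533) and was no longer called.

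Replicate 2 of the 4 h controls was low for the ATP5ME probes ILMN_1726603 at 11.56 and ILMN_1772506 at 7.97, and for ATP5MF probe ILMN_2310621 at 11.80. Replicate 3 of the 4 h MOTS-c arrays was high for ATP5MC1 probe ILMN_1712430 at 8.66 and for ATP5ME probe ILMN_1772506 at 9.42. Replicate 2 of the 72 h MOTS-c arrays was low for ATP5PB probe ILMN_1672191 at 10.92 and UQCRC2 at 10.63. Other arrays stood apart once each. These were 72 h control replicate 1 for ATP5MF probe ILMN_2310621 at 12.09, 72 h control replicate 6 for COX6C at 12.30, and 4 h control replicate 1 for UQCR10 probe ILMN_2366710 at 9.39. In treated cells they were 72 h replicate 1 for COX7A2L at 11.63, 72 h replicate 4 for COX7C at 13.89, 72 h replicate 3 for UQCR10 probe ILMN_1781986 at 9.97, and 4 h replicate 6 for UQCRB probe ILMN_2128489 at 5.93.

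The effect of MOTS-c differed between 4 h and 72 h, by the test of the interaction, for 15 member probes. That is 26.3% of the members, near the 27.9% of all tested probes. The interactions were -0.81, -0.83 and -0.35 for the UQCR10 probes ILMN_2366710, ILMN_2366714 and ILMN_1781986, -0.61 for ATP5MC1 probe ILMN_1712430, -0.45 for ATP5IF1 probe ILMN_1685978, -0.75 for ATP5MC2 probe ILMN_1807798 and -0.25 for COX6A1. They were 0.41 for ATP5F1C, 0.54 for UQCR11, 0.56 for ATP5MG probe ILMN_2079285, 0.47 for COX7B, 0.29 for COX5A, 0.44 for ATP5MC3, 0.37 for ATP5PF probe ILMN_1652806 and 0.27 for UQCRC1. Other tested probes of ATP5MC1, ATP5IF1, ATP5MC2, ATP5MG and ATP5PF had no interaction that was called. The causes of these values were not tested.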

How the results depend on the processing

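Over 12 settings and the removal of each array, 2677 alternative values of the 76 called changes were computed. Of these 2541 kept their direction and call, 136 kept the direction and lost the call, and 0 reversed. Many could not reverse, so the 0 does not measure stability. Changes of filter, probe choice, variance prior, arrays in the fit or replicate block left the estimate as it was. So did the removal of an array outside a comparison of 2 groups. With the probe of highest mean standing for each of 39 genes, fewer features were counted by construction: 13 were called at 72 h (12 higher, 1 lower), 8 in the interaction (6 and 2), 14 over time in control cells (5 and 9) and 8 over time in MOTS-c cells (3 and 5). Of all 13283 probes so chosen 45.1%, 34%, 62.6% and 38.1% were called in these comparisons, in either direction. With each array left out in turn, 0 to 0 member probes were called at 4 h, 18 to 23 at 72 h, 13 to 16 in the interaction, 23 to 25 over time in control cells and 12 to 15 over time in MOTS-c cells. The replicate block gave 0, 20, 16, 24 and 15 calls in that order, while 0.0125%, 37.3%, 27.4%, 57.6% and 33.3% of all tested probes were called. Same-numbered arrays correlated between -0.23 and 0.18, and a same-numbered array was the best match for at most 1 of 6. The labels state no pairing, and these correlations cannot exclude a shared culture day or batch. The ATP5PB call at 72 h, at 0.16, had an adjusted p of 0.0549 with the replicate block.

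Median scaling gave 17 higher and 5 lower at 72 h, 9 and 5 in the interaction, and 4 h medians of 0.030 for members and -0.0018 for all probes. With median scaling 37.1% of all tested probes were called at 72 h and 28.1% in the interaction. At 72 h, an adjusted p under 0.01 left 14 calls (26.9% of all tested probes) and one under 0.10 gave 27 (44.2% of all). Calls that ended at 72 h in a setting other than the removal of an array were those of ATP5F1D under median scaling (-0.17), ATP5PF probe ILMN_1772929 under median scaling (0.22), with Z scores (0.036) and with the 72 h arrays alone (0.16), ATP5PB with Z scores (0.053) and the block, ATP5MF probe ILMN_2307883 (0.13) and COX6C (0.096) with Z scores, and COX7A2L with the 72 h arrays alone (0.16). Single arrays ended the 72 h calls of ATP5PB (0.13 to 0.16), ATP5PF probe ILMN_1772929 (0.13 to 0.15) and COX7A2L (0.14 to 0.16), with 72 h control replicate 1 and 72 h MOTS-c replicate 3 among them for each, and that of ATP5F1D without 72 h control replicate 1 (-0.19). In the interaction they ended those of UQCRC1 (9 arrays), ATP5PF (7), UQCR10 probe ILMN_1781986 (7) and ATP5MC3 (1, MOTS-c 4 h replicate 6, 0.37). Settings ended those of COX6A1 with median scaling (-0.15) and Z scores (-0.16), COX5A (0.13) and ATP5MC3 (0.21) with Z scores, and UQCR10 probe ILMN_1781986 with median scaling (-0.25) and no detection filter (-0.35). Over time, median scaling also ended the control calls of ATP5ME and COX7A2L and the MOTS-c call of UQCR10 probe ILMN_1781986, Z scores and the arrays of the contrast alone that of COX6C, no detection filter the MOTS-c calls of UQCR10 probe ILMN_1781986 and ATP5PF probe ILMN_1652806, the brightness covariate those of UQCRH and ATP5PF probe ILMN_1652806, and 7 settings that of ATP5MK. Slide as a block was not run, since the headers give no slide. Apart from these, the cause of a lost call was not tested. The motif shares kept their order against all promoters in the window before the start, at 24.4% against 6.56% for the NRF1 letters and 9.76% against 3.86% for the YY1 letters, which had been 29.3% against 6.58%.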
